A study of Mus musculus with 15 samples.

Results

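Gut tissue of mice described as ctr was compared with organoids labelled nativ T75, which are epithelial cultures grown out of mouse gut. The members are 6 of the 15 libraries of the series, 3 of ctr gut and 3 of nativ T75 organoids, chosen by their descriptions and joined gene by gene. Both groups carry transcripts of Jup, which encodes the junction protein plakoglobin. Below, the organoids are nativ T75 unless another group is named. The comparison addresses which epithelial programmes of the tissue the cultures kept or lacked, and what they expressed that the tissue did not.

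The study deals with the loss of Jup from intestinal epithelium, in mice and in organoids, and measured poly(A) RNA in bulk. Its 15 libraries fall into 5 groups of 3, and the other 9 are gut described as PG_KO, organoids of T75 with DMSO (the usual solvent control) and organoids of T41 labelled Tamoxifen. The 3 ctr gut libraries carry the codes T50, T51 and T52, while the 3 nativ organoid libraries share the code T75. Nothing says that the organoid libraries came from separate cultures. On the organoid side the p-values may thus rest on technical spread only, and differences may be particular to T75. The titles and descriptions of the gut libraries disagree. Those described as ctr have titles with iVilCre ERT2 and JUPfl/fl, that is a floxed Jup with an inducible Cre recombinase driven by the promoter of villin, a gene of intestinal epithelial cells. Those described as PG_KO have titles with JUPfl/fl and DSS colitis, an inflammation of the colon caused by dextran sodium sulfate. Samples were grouped by description, and which mice received DSS or active Cre cannot be settled from these labels. The titles of the nativ and DMSO organoids give JUPfl/fl without Cre, and those of the T41 organoids give iVilCre ERT2 with JUPfl/fl. Age, sex and gut segment are not given in the labels, which name the tissue only as mouse gut.

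As background, the gut lining is renewed from stem cells at the base of the crypts, which are maintained by Wnt and Notch signals. Their daughters become absorptive cells, which carry a brush border of microvilli, or secretory cells, among them mucus-making goblet cells, hormone-making enteroendocrine cells, antimicrobial Paneth cells and chemosensory tuft cells. Transcription factors of the CDX, HNF4 and GATA families set intestinal identity, and Hox genes record the position along the gut, which differs between small intestine and colon. Organoids hold the epithelium alone, without muscle, connective tissue, vessels, nerves or immune cells, and are fed with growth factors from the medium.

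Each of the 6 libraries held 23194385 to 30526265 reads in genes, so that 3 reads correspond to 0.0983 to 0.129 CPM, the counts of a gene scaled to a common library total. CPM are not divided by gene length and are compared here only within a gene. Among the organoid libraries, library 2 stood somewhat apart, with Spearman correlations of 0.97 and 0.972 to the others across genes, against 0.98 between libraries 1 and 3. Gut library 1 held the most RNA of the gut wall, with 20032 CPM summed over 96 genes of muscle, connective tissue, vessels, nerves and immune cells, against 11993 and 5053 CPM in gut libraries 2 and 3 and 568 to 781 CPM in the organoids. Most of the organoid sum came from 3 of these genes, C3, Cd68 and Tpm2, with means of 446.5, 92.69 and 70.63 CPM. Their means in ctr gut were 710.9, 37.9 and 315.9 CPM. The organoid sum is thus not a measure of wall cells in culture. Both groups expressed Epcam, an adhesion molecule of epithelia, at 1116, 1391 and 1183 CPM in ctr gut and 501, 526 and 534 CPM in the organoids, and all 24 genes of a list of epithelia in general were present in both. The intestinal markers Vil1, which encodes villin, and Cdh17, an intestinal cadherin, were also present in both groups. Vil1 stood at 476, 695 and 872 CPM in ctr gut and 211, 166 and 244 CPM in the organoids, a log2 difference of -1.48 (SE 0.29, adjusted p = 0.00303). Cdh17 stood at 536, 763 and 894 CPM in ctr gut and 56.7, 33.7 and 54.7 CPM in the organoids, a log2 difference of -3.69 (SE 0.31, adjusted p = 0.000102). Jup itself stood at 302, 375 and 495 CPM in ctr gut and 386, 275 and 395 CPM in the organoids, a log2 difference of 0.09 (SE 0.26, adjusted p = 0.784), and the groups overlapped. Epcam, Vil1 and Cdh17 were chosen for this check after their values were seen.

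Tissue and culture differed at most genes. In edgeR's quasi-likelihood test, 10791 of 17915 tested genes (60.2%) had a Benjamini-Hochberg adjusted p under 0.05, with 5996 higher in ctr gut (33.5%) and 4795 higher in nativ T75 organoids (26.8%). These shares are the background for every list below, and the median log2 difference of all tested genes, organoids minus gut, was -0.07. The balance of the calls depended on the scaling. With library totals the median moved to -0.33 and the split to 7056 higher in ctr gut and 3554 higher in the organoids, and with DESeq2's size factors to -0.18 and 6469 against 4313. With scaling on the list of epithelial genes, the median was -0.32, with 6097 genes higher in ctr gut (34%) and 2691 higher in the organoids (15%). This scaling did not shrink the differences of wall genes. The median of the smooth muscle list, for example, went from -9.88 to -10.29. The gut and organoid libraries were deposited in separate tables, and a difference of table or sequencing cannot be told apart from one of tissue and culture.

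Most genes of the tissue were still found in culture. Counting a gene as present at 1 CPM or more in each of the 3 libraries, 14987 genes were present in ctr gut, of which 12422 (82.9%) were also present in nativ T75 organoids. Another 1065 (7.11%) were not detected there, that is under 0.1 CPM in each library. In the other direction, 43 of 13184 genes present in the organoids (0.326%) were not detected in ctr gut. Of 510 genes of epithelial lists present in ctr gut, 391 (76.7%) were present in the organoids and 41 were not detected. The plot of calls by list orders the programmes from those mostly higher in culture to those higher in the tissue throughout.

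**Figure D1:**
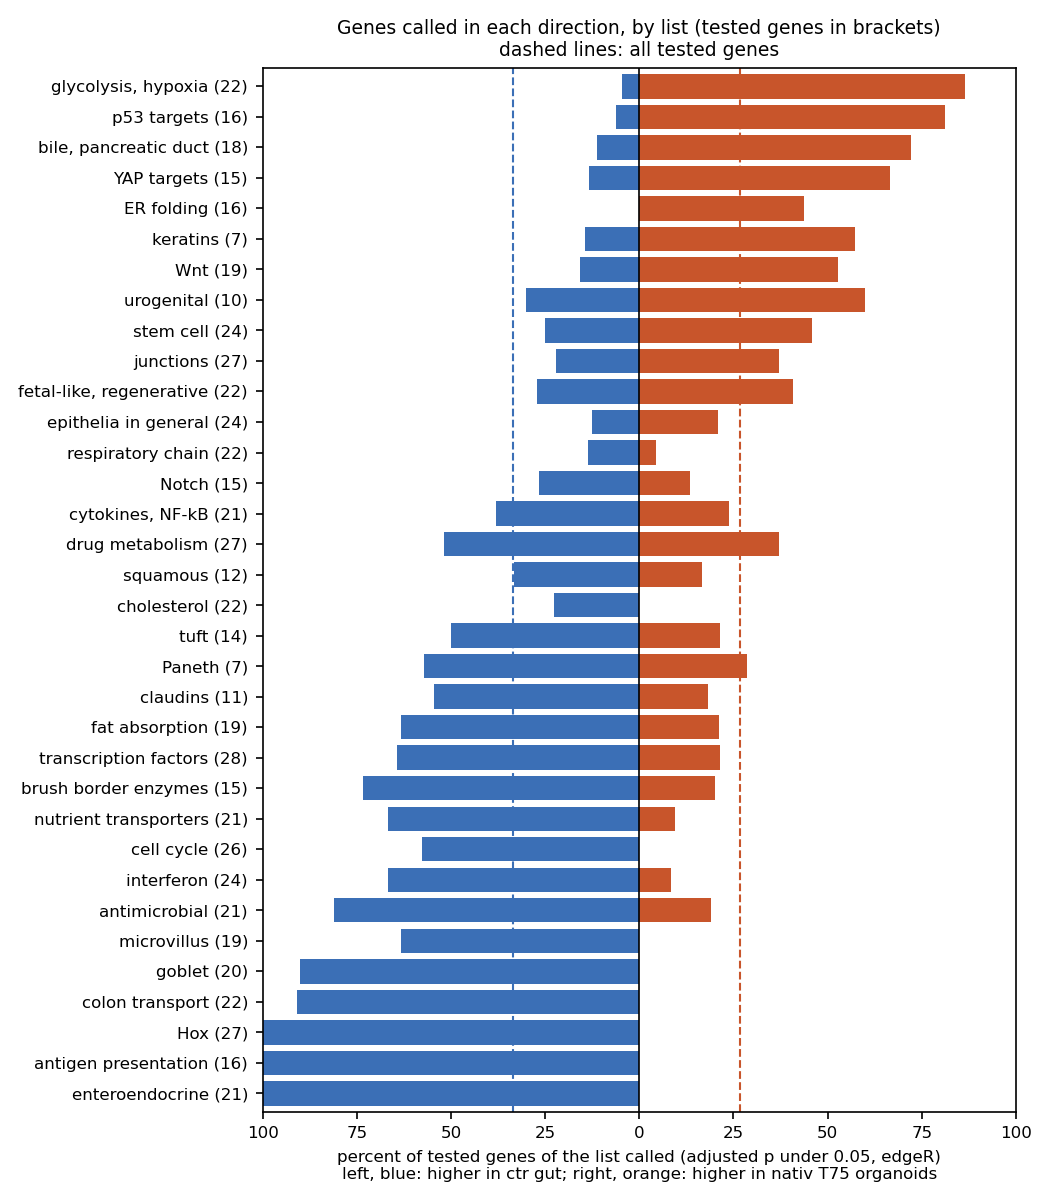
Percent of the tested genes of the Hox list and of each list of epithelium with at least 7 genes tested that were higher in ctr gut (left, blue) or in nativ T75 organoids (right, orange) at an adjusted p under 0.05 in edgeR, with the number tested in brackets and dashed lines at the shares of all tested genes, 33.5% and 26.8%. All tested enteroendocrine, antigen presentation and Hox genes lie on the gut side, and 19 of 22 genes of glycolysis and hypoxia on the organoid side.

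Part of the transcription factor set of the intestine was present in both groups, but Cdx1, Isx and Prdm1 were nearly absent from the organoids and the Hox genes were silent there. Among 28 intestinal and endodermal factors, 18 of 28 tested genes were higher in ctr gut and 6 in the organoids, with a median log2 difference of -1.71. Of the 24 present in ctr gut, 16 were present in the organoids (66.7%), against 82.9% over all genes present in ctr gut. Cdx1, a caudal-type homeobox factor of intestinal identity, stood at 146, 275 and 349 CPM in ctr gut and 0.0328, 0.277 and 0.104 CPM in the organoids, a log2 difference of -10.59 (SE 0.67, adjusted p = 4.02e-05). Its partner Cdx2 stood at 40.4, 45.7 and 92.7 CPM in ctr gut and 16, 17.8 and 15.9 CPM in the organoids, a log2 difference of -1.61 (SE 0.35, adjusted p = 0.00545). The groups did not overlap for either factor, but Cdx2 remained present in every organoid library where Cdx1 was at or under 0.277 CPM. Hnf4a, a nuclear receptor that drives absorptive genes, followed Cdx2, with 265, 469.7 and 615 CPM in ctr gut and 168, 99.9 and 164 CPM in the organoids, a log2 difference of -1.42 (SE 0.36, adjusted p = 0.0101). All 3 organoid libraries lay below all 3 gut libraries. The relative Hnf4g was lower too (log2 difference -4.11, adjusted p = 0.000935). Isx, which represses vitamin A uptake, stood at 28.6, 34.8 and 42.4 CPM in ctr gut against 0, 0.0347 and 0.0348 CPM in the organoids, a 1548-fold ratio with a 95% counting interval of 428 to 12785 (adjusted p = 1.92e-05). Prdm1, a repressor known for its role in the suckling intestine, stood at 24.2, 25.6 and 25.7 CPM in ctr gut and 0.0328, 0.0347 and 0.0696 CPM in the organoids, a log2 difference of -8.74 (SE 0.35, adjusted p = 1.16e-05). For Isx and Prdm1 no library of one group came near those of the other. The receptors for foreign compounds and bile acids went the same way, with log2 differences of -7.49 for Nr1i2 (adjusted p = 2.75e-05) and -4.11 for Nr1h4 (adjusted p = 8.73e-05). Elf3, an epithelial factor, differed by less than the spread between libraries, at 492, 773 and 867 CPM in ctr gut and 661, 646 and 602 CPM in the organoids, a log2 difference of 0.09 (SE 0.27, adjusted p = 0.799).

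6 of the factors were higher in the organoids, among them factors known from foregut and early endoderm. Gata5 stood at 1.15, 0.517 and 0.268 CPM in ctr gut and 56.8, 43.4 and 52.7 CPM in the organoids, a log2 difference of 6.55 (SE 0.43, adjusted p = 4.38e-05). Pdx1, which marks duodenum and pancreas, stood at 0.644, 0.647 and 1.95 CPM in ctr gut and 20.9, 26.8 and 22.8 CPM in the organoids, a log2 difference of 4.68 (SE 0.51, adjusted p = 0.000263). Neither gene overlapped between groups, and both had every gut library under 2 CPM. Foxa2 (log2 difference 2.40, adjusted p = 0.00117) and Gata6 (1.31, adjusted p = 0.00158) were present in both groups and higher in culture. Klf5, a factor of proliferating crypt cells, differed by a log2 of 1.26 (adjusted p = 0.0243), and this call was lost without gut library 2 (adjusted p = 0.0872) and without organoid library 1, 2 or 3 (adjusted p = 0.0585, 0.0618 and 0.0549).

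**Figure D2:**
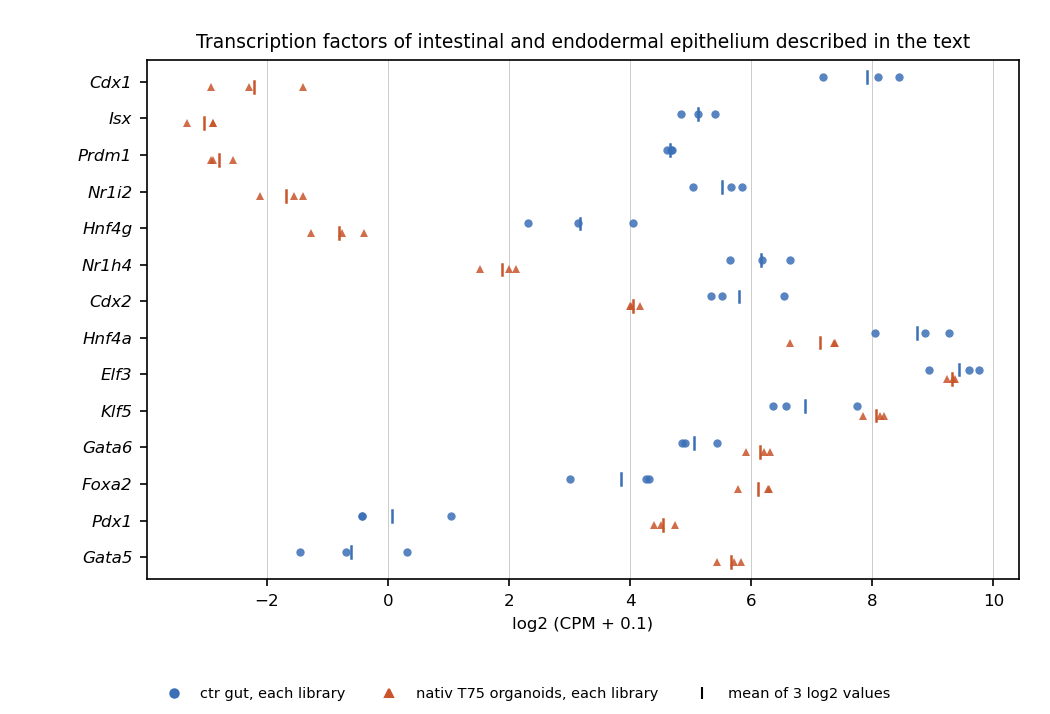
Level of each transcription factor described above as log2(CPM + 0.1) in the 3 ctr gut libraries (blue circles) and the 3 nativ T75 organoid libraries (orange triangles), with a tick at the mean of the 3 log2 values, to be compared within a gene only. Cdx1, Isx and Prdm1 sit near the bottom of the scale in the organoids, whereas Gata5 and Pdx1 do so in ctr gut.

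Hox genes separated the groups without exception among those tested. Of the 39 Hox genes listed, 22 were present in ctr gut. None of these was present in nativ T75 organoids, and 20 were not detected there. Among the tested, all 27 tested genes were higher in ctr gut, with a median log2 difference of -9.78, or -7.82 with genes at 0 reads set at their bound. Summed over the 39 genes, ctr gut held 530, 692 and 632 CPM and the organoids 0.0655, 0.381 and 0.209 CPM. Hoxb13 (chr11:96194316-96196610), the last gene of its cluster and known from the hindgut, stood at 138, 261 and 270.4 CPM in ctr gut and 0.0328, 0.104 and 0.0348 CPM in the organoids, a log2 difference of -11.60 (SE 0.56, adjusted p = 1.81e-05). Hoxd13, of the same posterior group, stood at 106, 167 and 135 CPM in ctr gut and 0, 0.0347 and 0.0696 CPM in the organoids, a 3944-fold ratio with a 95% counting interval of 1349 to 19130 (adjusted p = 1.31e-05). Hoxa10 (chr6:52231197-52240854) was at 40.6, 42.9 and 32.5 CPM in ctr gut and had 0 reads in the organoids, at least 1133-fold higher in ctr gut (adjusted p = 3.1e-05). Anterior members were also absent in culture: Hoxa5 stood at 23.5, 18.9 and 15 CPM in ctr gut and at 0 reads in the organoids, at least 565-fold higher in ctr gut (adjusted p = 6.86e-05). Genes of the HoxC cluster were at or near 0 in both groups. Both ends of the clusters were thus at or near 0 reads in culture. Hox genes are also expressed by muscle and connective tissue of the gut wall. In bulk tissue fewer cells of a type and less RNA per cell cannot be told apart, and which cells of the tissue carried these reads was not tested.

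Genes of the colon's own absorptive cells were the epithelial programme with the widest gap among the absorptive ones. In the list of ion and water transport of the colon, 20 of 22 tested genes were higher in ctr gut and the other 2 were not called, with a median log2 difference of -8.28, and 5 of the 22 present in ctr gut were present in the organoids. Without organoid library 1 the median was -7.69. Car1, a carbonic anhydrase of colon surface cells, stood at 816, 915 and 570.2 CPM in ctr gut and 0, 0.0693 and 0 CPM in the organoids, a 33605-fold ratio with a 95% counting interval of 9302 to 277496 (adjusted p = 1.31e-05). Car4, its membrane-bound relative, stood at 833, 1463 and 533 CPM in ctr gut and 0.0328, 0.0693 and 0.0348 CPM in the organoids, a log2 difference of -13.96 (SE 0.67, adjusted p = 1.81e-05). Every gut library exceeded every organoid library by far for both. Atp12a, a proton and potassium pump of the distal colon, stood at 335, 1187 and 490.2 CPM in ctr gut and 0.131, 0 and 0.0696 CPM in the organoids, a log2 difference of -12.94 (SE 0.89, adjusted p = 5.01e-05). Slc26a3, the chloride and bicarbonate exchanger of the colon, stood at 38.6, 389.8 and 304 CPM in ctr gut and 0.0328, 0.0693 and 0.0696 CPM in the organoids, a log2 difference of -11.74 (SE 1.24, adjusted p = 0.00024), and gut library 1 was the lowest of the tissue. The tissue itself varied for these transporters. Aqp8, a water channel, was at 39.7, 307 and 87.9 CPM against 0, 0 and 0.0696 CPM, a 6007-fold ratio with a 95% counting interval of 1662 to 49605 (adjusted p = 0.000259). Car2, a carbonic anhydrase of many epithelia, was the exception, at 352, 377 and 413 CPM in ctr gut and 356, 306 and 373 CPM in the organoids, a log2 difference of 0.11 (SE 0.18, adjusted p = 0.625), with overlapping groups. Of the anion transporter Slc26a2, at 44.6, 109.9 and 97.8 CPM in ctr gut and 40.9, 26.9 and 49.1 CPM in the organoids, the test made no call (adjusted p = 0.0717), although it did with library totals (log2 difference -1.11, adjusted p = 0.0353) and without gut library 1 (-1.24, adjusted p = 0.00234).

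Promoters of 4 genes lacking in culture, Slc26a3 and Aqp8 for absorption and Atoh1 and Chga for the secretory branch described next, are shown because they bear the short letters that CDX factors are known to bind. Each is the 250 bases before the RefSeq start on build GRCm38.p6, 5′ to 3′, with capitals on matches to TTTAT or TTTAC on either strand (ATAAA and GTAAA on the other). Their positions are chr12:31437969-31438218 (+) for Slc26a3, chr7:123462044-123462293 (+) for Aqp8, chr6:64728875-64729124 (+) for Atoh1 and chr12:102554691-102554940 (+) for Chga.
Slc26a3: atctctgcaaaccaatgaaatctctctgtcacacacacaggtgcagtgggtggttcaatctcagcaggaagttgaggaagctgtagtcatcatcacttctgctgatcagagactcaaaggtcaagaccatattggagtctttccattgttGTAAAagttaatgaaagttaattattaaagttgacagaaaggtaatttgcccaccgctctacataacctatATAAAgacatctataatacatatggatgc
Aqp8: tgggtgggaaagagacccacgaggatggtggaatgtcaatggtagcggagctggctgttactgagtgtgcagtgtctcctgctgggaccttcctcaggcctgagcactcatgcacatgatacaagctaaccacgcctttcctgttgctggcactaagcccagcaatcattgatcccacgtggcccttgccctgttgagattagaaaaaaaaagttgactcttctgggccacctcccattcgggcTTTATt
Atoh1: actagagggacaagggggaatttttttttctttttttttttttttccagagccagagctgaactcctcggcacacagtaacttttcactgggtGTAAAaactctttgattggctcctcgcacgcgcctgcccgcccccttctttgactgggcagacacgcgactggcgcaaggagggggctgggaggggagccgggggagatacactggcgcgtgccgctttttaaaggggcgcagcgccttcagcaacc
Chga: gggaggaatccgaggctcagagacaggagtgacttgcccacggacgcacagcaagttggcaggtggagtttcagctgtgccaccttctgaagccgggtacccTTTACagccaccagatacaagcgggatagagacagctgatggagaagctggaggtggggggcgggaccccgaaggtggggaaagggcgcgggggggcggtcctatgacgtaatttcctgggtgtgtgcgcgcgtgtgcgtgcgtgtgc
The nearest match lay 29 bases before the start in Slc26a3, 6 in Aqp8, 157 in Atoh1 and 148 in Chga. Letters this short are common: 14037 of 26997 RefSeq promoters of this length (52%) held at least 1 match. Among genes present in both groups the share was 37.0% (3416 of 9236 with a promoter), and among genes present in ctr gut and not detected in nativ T75 organoids it was 52.3% (387 of 740). Of the 41 such genes in an epithelial list, 34 had a promoter and 25 of these (73.5%) held the letters, as did 22 of 33 (66.7%) promoters of genes found only in the organoids. The search also counted ATAAA within TATAAA, the letters of a TATA box, and did not set such matches apart. The Slc26a3 match 29 bases before the start is of this kind. A match is a description of the letters and not a bound site. Whether CDX or other factors bind these letters, and what the shares reflect, was not tested. Slc26a3, Aqp8 and Chga, and Muc2 and Cdh1 in the paragraphs on goblet cells and junctions, were chosen after their values were seen.

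Most microvillus genes were found in both groups, while Cdhr2, Cdhr5 and Myo1a were near 1 CPM in the organoids. In the microvillus list, 12 of 19 tested genes were higher in ctr gut and the other 7 were not called, with a median log2 difference of -1.48, and 17 of the 19 present in ctr gut were present in the organoids. Ezr, which ties actin to the membrane, did not differ beyond the spread, at 617, 515 and 809 CPM in ctr gut and 611, 449.5 and 626 CPM in the organoids, a log2 difference of 0.04 (SE 0.24, adjusted p = 0.892). The protocadherins that link neighbouring microvilli were near 1 CPM in the organoids, Cdhr2 at 443, 593 and 419 CPM in ctr gut and 1.05, 1.18 and 1.01 CPM in the organoids and Cdhr5 at 748, 999.6 and 708 CPM in ctr gut and 0.819, 0.762 and 1.25 CPM in the organoids. Their log2 differences were -8.55 (SE 0.29, adjusted p = 1.07e-05) and -9.50 (SE 0.34, adjusted p = 1.16e-05), with no overlap. Myo1a, the myosin of the brush border, went with them, at 213, 535 and 631 CPM in ctr gut and 1.21, 1.66 and 0.974 CPM in the organoids, a log2 difference of -8.24 (SE 0.59, adjusted p = 5.71e-05). Myo1d, a related myosin, differed by a log2 of -0.08 (SE 0.30).

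Digestive and uptake genes were mostly lower in culture, with exceptions in each list. For brush border enzymes 11 of 15 tested genes were higher in ctr gut and 3 in the organoids, with a median log2 difference of -3.41, or -5.13 without organoid library 2. Mgam, which splits maltose, stood at 146, 240 and 364 CPM in ctr gut and 0.229, 2.7 and 0.661 CPM in the organoids, a log2 difference of -7.43 (SE 0.90, adjusted p = 0.000421), and the protease subunit Mep1b at 82.1, 104 and 99.4 CPM against 0.0328, 0.173 and 0.0696 CPM, a log2 difference of -9.71 (SE 0.41, adjusted p = 1.37e-05). Dpp4, a peptidase, was instead higher in culture, at 18.3, 19.2 and 22.8 CPM in ctr gut and 33.1, 37.5 and 38.4 CPM in the organoids, a log2 difference of 1.11 (SE 0.19, adjusted p = 0.00165), as was the ceramidase Asah2 (log2 difference 1.90, adjusted p = 0.000647). Among nutrient transporters, 14 of 21 tested genes were higher in ctr gut and 2 in the organoids, with a median log2 difference of -2.42, or -1.22 without gut library 2. Slc15a1, the peptide transporter, stood at 42.9, 91 and 67.8 CPM in ctr gut and 0.0328, 0.173 and 0.174 CPM in the organoids, a log2 difference of -8.78 (SE 0.55, adjusted p = 3.77e-05). S100g, a calcium carrier known from the duodenum, went the other way, at 0.0358, 1.42 and 0.23 CPM in ctr gut and 15.7, 28.4 and 17.4 CPM in the organoids, a log2 difference of 5.49 (SE 0.94, adjusted p = 0.00177), or 7.52 without gut library 2. Neither overlapped between groups.

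Of genes of fat absorption, 12 of 19 tested genes were higher in ctr gut and 4 in the organoids, with a median log2 difference of -1.96, and 1 in nativ T75 organoids under the epithelial scaling. Apob, the protein of chylomicrons, stood at 53.1, 114 and 65.7 CPM in ctr gut and 0.295, 0.624 and 0.452 CPM in the organoids, a log2 difference of -7.14 (SE 0.47, adjusted p = 4.35e-05), while Mogat2, which rebuilds triglyceride, stood at 3.12, 1.55 and 3.86 CPM in ctr gut and 17.5, 22.2 and 17 CPM in the organoids, a log2 difference of 2.99 (SE 0.38, adjusted p = 0.000505). Slc27a4, a fatty acid transporter, differed by less than the spread, with a log2 difference of 0.04 (SE 0.17). Of the 7 bile acid genes 4 were tested. Slc10a2, the ileal bile acid carrier, stood at 21.3, 16.1 and 23.2 CPM in ctr gut and 13.3, 10.3 and 18.1 CPM in the organoids, with overlapping groups and a log2 difference of -0.29 (SE 0.25, adjusted p = 0.347). Slc51b, a subunit of the exit transporter on the other face of the cell, was at 12.7, 34.4 and 49 CPM in ctr gut and had 0 reads in the organoids, at least 925-fold higher in ctr gut (adjusted p = 0.000492).

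Goblet and enteroendocrine genes were nearly all lower in culture. In the goblet list 18 of 20 tested genes were higher in ctr gut and the other 2 were not called, with a median log2 difference of -8.62, or -8.40 with genes at 0 reads set at their bound, and 6 of the 20 present in ctr gut were present in the organoids. The goblet median was -9.85 without gut library 1, -7.65 without gut library 2 and -9.33 without organoid library 1. Muc2, the gel-forming mucin, stood at 2286, 1704 and 1095 CPM in ctr gut and 1.05, 1.91 and 0.87 CPM in the organoids, a log2 difference of -10.08 (SE 0.52, adjusted p = 2.2e-05). Zg16, a lectin of colon mucus, stood at 3094, 2151 and 451 CPM in ctr gut and 0.131, 0.139 and 0.104 CPM in the organoids, a log2 difference of -13.56 (SE 0.99, adjusted p = 5.92e-05). Clca1, a mucus-processing protease, stood at 2027, 1639 and 282 CPM in ctr gut and 0.0983, 0.104 and 0.174 CPM in the organoids, a log2 difference of -13.03 (SE 1.02, adjusted p = 7.76e-05). No organoid library reached 2 CPM for these genes. These are the main secreted proteins of goblet cells. Klk1, a kallikrein, had 0 reads in culture and 95.9, 98.2 and 36.2 CPM in ctr gut, at least 2243-fold higher in ctr gut (adjusted p = 0.000156). Atoh1 (chr6:64729125-64731245), the factor that starts the secretory lineage, was at 13.9, 12.7 and 20.4 CPM against 0, 0 and 0.0348 CPM, a 1386-fold ratio with a 95% counting interval of 248 to 54773 (adjusted p = 4.88e-05). Spink4, a goblet cell protease inhibitor, was present in every library, at 108, 119 and 142 CPM in ctr gut and 54.1, 136 and 61.5 CPM in the organoids, with overlapping groups and a log2 difference of -0.27 (SE 0.39, adjusted p = 0.568). Without organoid library 2, the highest of the organoids, it was called lower in culture (log2 difference -0.88, adjusted p = 0.0168). Gut libraries 1 and 2, which held the most wall RNA, were also the highest of the tissue for Muc2, Zg16 and Clca1.

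Among enteroendocrine genes all 21 tested genes were higher in ctr gut, with a median log2 difference of -9.11. Of 19 present in ctr gut, 13 were not detected in nativ T75 organoids and 1 was present, Cpe, a peptide-processing enzyme, at 346, 198 and 159.9 CPM in ctr gut and 58.7, 42.5 and 59.3 CPM in the organoids, a log2 difference of -1.86 (SE 0.28, adjusted p = 0.00096). Chga (chr12:102554941-102565027), a protein of hormone granules, stood at 254, 77.7 and 63.4 CPM in ctr gut and 0.0983, 0 and 0 CPM in the organoids, a 4006-fold ratio with a 95% counting interval of 1371 to 19430 (adjusted p = 9.56e-05). Pyy, a hormone of the lower gut, stood at 968, 319 and 179 CPM in ctr gut and 0.0655, 0.0347 and 0.0696 CPM in the organoids, a log2 difference of -12.67 (SE 0.94, adjusted p = 6.36e-05). Both are products of hormone cells. Tac1, the precursor of substance P, was at 93, 169.5 and 149 CPM against 0, 0.0347 and 0 CPM, a 11891-fold ratio with a 95% counting interval of 2134 to 469719 (adjusted p = 1.73e-05). For Chga and Pyy gut library 1 was the highest of the tissue. Enteric neurons express Tac1 too, and the 12 neuron and glia genes summed to 499, 256 and 154 CPM in ctr gut and 7.25 to 9.64 CPM in the organoids, and their part in the Tac1 difference was not tested.

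Paneth and tuft cell genes did not move as sets. The Paneth list had 7 tested genes of 19, with 4 higher in ctr gut and 2 in nativ T75 organoids, and the other 12 had too few reads to be tested. Mmp7, the protease that activates defensins, was among the 15 genes with the largest difference in favour of the organoids, at 5.41, 2.07 and 9.98 CPM in ctr gut and 1969, 2109 and 2283 CPM in the organoids, a log2 difference of 8.75 (SE 0.67, adjusted p = 7.1e-05). Paneth cells are a cell type of the small intestine. Pla2g2a, an antibacterial phospholipase, was the reverse, at 15.6, 51 and 55.6 CPM in ctr gut and 0 reads in culture, at least 1168-fold higher in ctr gut (adjusted p = 0.000442). In the tuft list 7 of 14 tested genes were higher in ctr gut and 3 in the organoids, with a median log2 difference of -0.68. That median lay between -1.31 and -1.70 without gut library 3 or any 1 of the organoid libraries. Dclk1, a kinase used as a tuft marker, stood at 45.9, 22.2 and 9.41 CPM in ctr gut and 44.6, 26.5 and 49.7 CPM in the organoids, a log2 difference of 0.92 (SE 0.49, adjusted p = 0.138), with overlapping groups. It was called without gut library 1 (log2 difference 1.52, adjusted p = 0.0131). Il17rb, a receptor for interleukin 25, was higher in culture, at 1.29, 1.21 and 0.918 CPM in ctr gut and 8.22, 8.56 and 8.6 CPM in the organoids, a log2 difference of 3.15 (SE 0.30, adjusted p = 0.000144). The signalling gene Plcb2 had 0 reads there and 13.8, 12.8 and 8.03 CPM in ctr gut, at least 339-fold higher in ctr gut (adjusted p = 0.000139).

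All genes of the junction list and of the keratin list were present in culture, and their mix differed. Among junction genes 6 of 27 tested genes were higher in ctr gut and 10 in the organoids, with a median log2 difference of 0.11, a median that turned to -0.07 with the epithelial scaling and -0.12 with library totals. All 27 were present in both groups. Ppl, a plakin that links keratins to the cell edge, stood at 15.6, 4.4 and 17 CPM in ctr gut and 217, 129 and 226 CPM in the organoids, a log2 difference of 4.19 (SE 0.51, adjusted p = 0.000436). Plakins serve desmosomes. Nectin4 and Cxadr, adhesion molecules, were also higher, with log2 differences of 3.46 (adjusted p = 0.000948) and 1.61 (adjusted p = 0.00141). Dsc2, a desmosomal cadherin, stood at 144, 169 and 290.3 CPM in ctr gut and 28, 18.5 and 28.6 CPM in the organoids, a log2 difference of -2.78 (SE 0.33, adjusted p = 0.000396). Nectin3 was lower too, at 36.7, 51.5 and 63.1 CPM in ctr gut and 5.04, 5.68 and 4.14 CPM in the organoids, a log2 difference of -3.10 (SE 0.30, adjusted p = 0.000161). Cgn, the tight junction scaffold cingulin, did not differ beyond the spread (117, 138 and 202 CPM in ctr gut and 141, 89.8 and 132 CPM in the organoids, log2 difference -0.10, SE 0.27). Cdh1, which encodes E-cadherin, stood at 929.6, 1201 and 1328 CPM in ctr gut and 757, 524 and 847 CPM in the organoids, a log2 difference of -0.46 (SE 0.25, adjusted p = 0.149), and was called at -0.70 with library totals (adjusted p = 0.0388), at -0.67 with the epithelial scaling (adjusted p = 0.0404) and at -0.65 without gut library 1 (adjusted p = 0.0417).

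Claudins, the strands of tight junctions, split by member. Of 18 claudin genes in the list 6 of 11 tested genes were higher in ctr gut and 2 in the organoids, with a median log2 difference of -1.40. Of the 10 present in ctr gut, 8 were present in the organoids and 1, Cldn14, was not detected. Cldn2, which forms cation pores, stood at 16.4, 42.8 and 156 CPM in ctr gut and 538, 404 and 656 CPM in the organoids, a log2 difference of 3.10 (SE 0.78, adjusted p = 0.00988). Cldn4, a sealing claudin, stood at 261, 106 and 171 CPM in ctr gut and 729, 606 and 646 CPM in the organoids, a log2 difference of 2.15 (SE 0.31, adjusted p = 0.000858). Neither overlapped, but the gut libraries themselves spread widely for Cldn2, with gut library 3 the highest (log2 difference 4.36 without it). Cldn15, another pore former, was the most reduced among claudins with reads in each organoid library, at 10.7, 14.1 and 44.4 CPM in ctr gut and 0.197, 0.416 and 0.0696 CPM in the organoids, a log2 difference of -6.40 (SE 0.86, adjusted p = 0.00063). Cldn7 (log2 difference -1.40, adjusted p = 0.00226) and Cldn23 (-3.03, adjusted p = 2.88e-05) were also lower in culture. Cldn12 stood at 41.6, 46.3 and 67.4 CPM in ctr gut and 52.9, 40.8 and 55.4 CPM in the organoids and was not called (a log2 difference of 0.18 (SE 0.24, adjusted p = 0.536)).

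The keratins of simple epithelium were present in both groups in different proportions. For the 7 keratins 1 of 7 tested genes were higher in ctr gut and 4 in the organoids, with a median log2 difference of 1.59. Krt19 stood at 1766, 1811 and 3436 CPM in ctr gut and 1944, 1868 and 1992 CPM in the organoids, a log2 difference of -0.03 (SE 0.32, adjusted p = 0.937). Krt18 stood at 443, 195 and 416 CPM in ctr gut and 3047, 3454 and 2957 CPM in the organoids, a log2 difference of 3.43 (SE 0.36, adjusted p = 0.00023). Krt7, a keratin of ducts and urinary epithelium, stood at 202, 78.7 and 298 CPM in ctr gut and 1294, 1047 and 1254 CPM in the organoids, a log2 difference of 2.88 (SE 0.47, adjusted p = 0.00137). Every organoid library exceeded every gut library for Krt18 and Krt7. Krt20, the keratin of mature surface cells, was the 1 keratin called lower in culture, at 556, 919.8 and 1085 CPM in ctr gut and 2.1, 1.66 and 2.37 CPM in the organoids, a log2 difference of -8.47 (SE 0.41, adjusted p = 1.87e-05). Krt8, the partner of Krt18, stood at 2339, 2798 and 4195 CPM in ctr gut and 1731, 1692 and 1768 CPM in the organoids and was not called (log2 difference -0.60, adjusted p = 0.104). It was called with library totals (-0.85, adjusted p = 0.0203), with the epithelial scaling (-0.76, adjusted p = 0.0188) and without gut library 1 (-0.81, adjusted p = 0.0318). The plot of keratins, junction genes and claudins shows the values of each library.

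**Figure D3:**
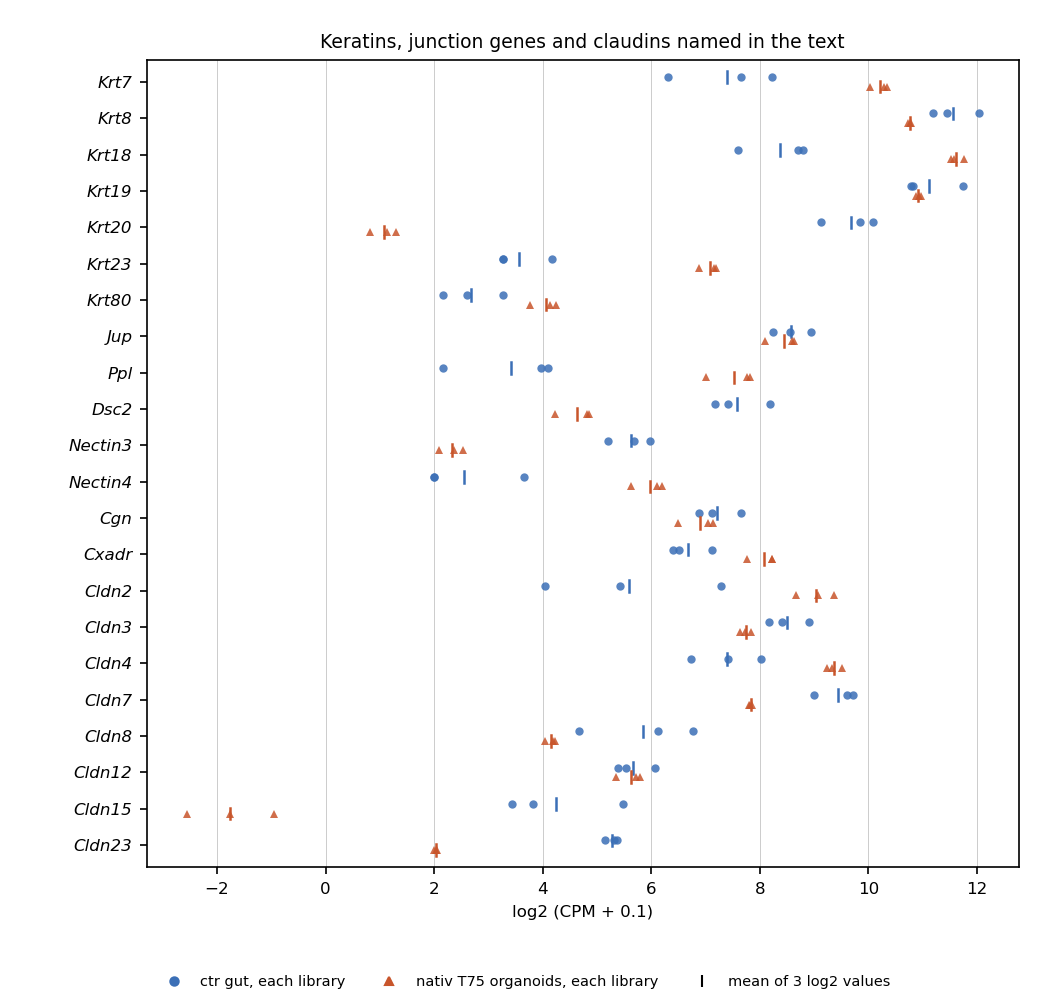
Keratins, junction genes and claudins as log2(CPM + 0.1) in the 3 ctr gut libraries (blue circles) and the 3 nativ T75 organoid libraries (orange triangles), with a tick at the mean of the 3 log2 values, to be compared within a gene only. Krt19, Jup and Cldn12 overlap between groups, Krt20 and Cldn15 lie far to the left in the organoids, and Krt7, Krt18, Ppl and Cldn2 to the right.

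Stem cell, Wnt and YAP target lists held more genes higher in culture than in the tissue, while division genes were lower or not called. In the stem cell list 6 of 24 tested genes were higher in ctr gut and 11 in the organoids, with a median log2 difference of 0.39. Lgr5, the receptor that marks crypt base stem cells and binds R-spondin, stood at 0.644, 0.302 and 1.65 CPM in ctr gut and 54, 52.6 and 68.5 CPM in the organoids, a log2 difference of 6.30 (SE 0.54, adjusted p = 0.000108). Cd44, a hyaluronan receptor of crypts, stood at 124, 56.4 and 87.7 CPM in ctr gut and 819, 616 and 942 CPM in the organoids, a log2 difference of 3.41 (SE 0.32, adjusted p = 0.000144). Smoc2, another crypt base gene, was the reverse, at 59.7, 26.5 and 19.5 CPM against 0.0655, 0.104 and 0 CPM, a log2 difference of -8.89 (SE 0.73, adjusted p = 9.03e-05). The stem cell markers thus did not move as 1 set. In the Wnt list 3 of 19 tested genes were higher in ctr gut and 10 in the organoids, with a median log2 difference of 1.16. Notum, a secreted Wnt inhibitor, stood at 0.179, 0.0216 and 0.0765 CPM in ctr gut and 55.4, 35.8 and 55 CPM in the organoids, a log2 difference of 9.26 (SE 0.51, adjusted p = 2.57e-05). Sp5, a Wnt target, stood at 1.11, 0.259 and 1.45 CPM in ctr gut and 10.5, 11.2 and 12.9 CPM in the organoids, a log2 difference of 3.85 (SE 0.56, adjusted p = 0.000863). Nkd1, an inhibitor inside the cell, was lower, at 47.1, 28.2 and 7.46 CPM in ctr gut and 0.229, 0 and 0.0696 CPM in the organoids, a log2 difference of -7.75 (SE 0.97, adjusted p = 0.000483). Feedback inhibitors of Wnt thus lay on both sides. Within the tissue, Smoc2 and Nkd1 were highest in gut library 1 and lowest in gut library 3, the order of summed wall RNA. Which cells of the tissue carried their reads was not tested. The Wnt ligand Wnt7b, in no list, stood at 0.143, 0.216 and 0.0382 CPM in ctr gut and 554, 312 and 507 CPM in the organoids, a log2 difference of 11.98 (SE 0.47, adjusted p = 1.16e-05).

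Among cell cycle genes 15 of 26 tested genes were higher in ctr gut and the other 11 were not called, with a median log2 difference of -0.74. Mki67, found in dividing cells, stood at 180.2, 167 and 242 CPM in ctr gut and 47.3, 53.6 and 49.4 CPM in the organoids, a log2 difference of -1.71 (SE 0.22, adjusted p = 0.000501). Mcm5, which unwinds DNA for replication, stood at 72.6, 75.8 and 124 CPM in ctr gut and 17.9, 19.5 and 17.8 CPM in the organoids, a log2 difference of -2.05 (SE 0.27, adjusted p = 0.000567). Cdk1, the mitotic kinase, stood at 68.6, 70.5 and 96.4 CPM in ctr gut and 61.4, 72.7 and 62.8 CPM in the organoids and overlapped (a log2 difference of -0.00 (SE 0.21, adjusted p = 0.99)). All 26 cell cycle genes were present in both groups. In the Notch list 4 of 15 tested genes were higher in ctr gut and 2 in the organoids, with a median log2 difference of -0.35. The ligand Jag2 (log2 difference 2.47, adjusted p = 0.000347) and the target Hes1 (1.29, adjusted p = 0.000479) were higher in culture, and the ligand Dll4, which stood at 10.6, 14.3 and 17.1 CPM in ctr gut and 0.328, 0.104 and 0.383 CPM in the organoids, was lower, a log2 difference of -5.43 (SE 0.49, adjusted p = 0.000131).

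Targets of YAP, the growth regulator of the Hippo pathway, were mostly higher in culture: 2 of 15 tested genes were higher in ctr gut and 10 in the organoids, with a median log2 difference of 1.83. Ankrd1, a commonly used YAP target, stood at 0.824, 0.0431 and 0 CPM in ctr gut and 302, 172 and 246 CPM in the organoids, a log2 difference of 9.87 (SE 0.87, adjusted p = 0.000118). Ccn2, which encodes connective tissue growth factor, stood at 48.5, 14.2 and 6.81 CPM in ctr gut and 644, 299.9 and 584 CPM in the organoids, a log2 difference of 4.74 (SE 0.72, adjusted p = 0.00106). Gut library 1 was the highest of the tissue for both, and without it the log2 difference of Ankrd1 was 13.40. Nt5e, an ectonucleotidase, ran against the list, at 182, 215 and 289 CPM in ctr gut and 0.688, 0.658 and 0.731 CPM in the organoids, a log2 difference of -8.11 (SE 0.31, adjusted p = 1.16e-05). The list of fetal-like and regenerative epithelium was mixed, and 6 of 22 tested genes were higher in ctr gut and 9 in the organoids, with a median log2 difference of -0.05. Clu, which encodes clusterin, stood at 247, 382 and 95.9 CPM in ctr gut and 8443, 7096 and 10181 CPM in the organoids, a log2 difference of 5.41 (SE 0.54, adjusted p = 0.000195). Spp1, which encodes osteopontin, stood at 20.8, 1.12 and 1.68 CPM in ctr gut and 1862, 1413 and 2124 CPM in the organoids, a log2 difference of 8.14 (SE 1.22, adjusted p = 0.00101). Without gut library 1 the log2 difference of Spp1 was 10.50. Ereg, a growth factor of repair, was lower, at 122, 73.5 and 33.9 CPM in ctr gut and 5.7, 3.43 and 6.61 CPM in the organoids, a log2 difference of -3.59 (SE 0.46, adjusted p = 0.000505).

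Defence genes were largely lower in culture, and antigen presentation was so in every tested member. Of its genes all 16 tested genes were higher in ctr gut, with a median log2 difference of -3.04. H2-Aa, a chain of MHC class II, stood at 611, 562 and 253 CPM in ctr gut and 0, 0.104 and 0.0348 CPM in the organoids, a log2 difference of -12.95 (SE 0.68, adjusted p = 2.2e-05). Ciita, the regulator of class II genes, was at 34.8, 46 and 23.9 CPM against 0, 0 and 0.0348 CPM, a 3039-fold ratio with a 95% counting interval of 545 to 120087 (adjusted p = 2.6e-05). Class I was present in both groups, with B2m, its invariant chain, at 1013, 1241 and 625 CPM in ctr gut and 354, 405 and 404 CPM in the organoids, a log2 difference of -1.04 (SE 0.27, adjusted p = 0.0115). Class II genes are also expressed by immune cells of the tissue: the 12 macrophage and dendritic cell genes summed to 1947, 899 and 546 CPM in ctr gut and to 86.4 to 104 CPM in the organoids, and their part in these differences was not tested. Nearly all of the organoid sum was Cd68, at a mean of 92.69 CPM against 37.9 CPM in ctr gut, the 1 gene of the 12 present in culture. For interferon targets 16 of 24 tested genes were higher in ctr gut and 2 in the organoids, with a median log2 difference of -1.13, but under the epithelial scaling or with library totals no member was called higher in the organoids. Gbp2, a guanylate-binding protein, stood at 399.6, 598 and 269.9 CPM in ctr gut and 4.19, 4.16 and 6.4 CPM in the organoids, a log2 difference of -6.17 (SE 0.39, adjusted p = 3.86e-05).

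Of antimicrobial and acute-phase genes, 17 of 21 tested genes were higher in ctr gut and 4 in the organoids, with a median log2 difference of -5.76, or -4.87 without gut library 3. Lypd8, which keeps flagellated bacteria from the colon surface, stood at 9938, 14880.3 and 9811 CPM in ctr gut and 0.95, 3.29 and 3.13 CPM in the organoids, a log2 difference of -11.93 (SE 0.70, adjusted p = 3.06e-05). Saa1, serum amyloid A, stood at 2111, 3237 and 876 CPM in ctr gut and 0.0328, 0.0347 and 0.348 CPM in the organoids, a log2 difference of -13.59 (SE 0.94, adjusted p = 5.15e-05). 4 genes went the other way, among them Wfdc2, a protease inhibitor, at 126, 69.3 and 90.1 CPM in ctr gut and 1243, 1425 and 1231 CPM in the organoids, a log2 difference of 4.05 (SE 0.28, adjusted p = 5.01e-05). For Wfdc2 the groups did not overlap. Ltf, the iron binder lactoferrin, stood at 93.7, 224 and 104 CPM in ctr gut and 1032, 596 and 1282 CPM in the organoids, a log2 difference of 3.02 (SE 0.43, adjusted p = 0.000854). Lcn2, which binds bacterial iron carriers, stood at 367, 81.9 and 77.4 CPM in ctr gut and 1126, 917 and 1234 CPM in the organoids, a log2 difference of 2.94 (SE 0.59, adjusted p = 0.0037), with gut library 1 the highest of the tissue and still below every organoid library. In the list of cytokines and NF-kB targets 8 of 21 tested genes were higher in ctr gut and 5 in the organoids, with a median log2 difference of -0.75, and 2 in nativ T75 organoids under the epithelial scaling. Il1b, interleukin 1 beta, stood at 298, 146 and 90.5 CPM in ctr gut and 0.0328, 0 and 0.209 CPM in the organoids, a log2 difference of -10.78 (SE 0.78, adjusted p = 5.84e-05). Csf2, a growth factor of myeloid cells, stood at 0.107, 0.604 and 0.268 CPM in ctr gut and 6.95, 6.58 and 8.73 CPM in the organoids, a log2 difference of 4.76 (SE 0.59, adjusted p = 0.000449).

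Genes of glycolysis and p53 targets were mostly higher in the organoids. In the list of glycolysis and hypoxia 1 of 22 tested genes were higher in ctr gut and 19 in the organoids, with a median log2 difference of 1.43. With the epithelial scaling 14 were higher in the organoids and 1 in ctr gut, with a median of 1.19. Ndrg1, a gene induced by low oxygen, stood at 129.9, 62.4 and 88.4 CPM in ctr gut and 1248, 1062 and 1164 CPM in the organoids, a log2 difference of 3.90 (SE 0.29, adjusted p = 6.65e-05). Vegfa, the vessel growth factor, stood at 86.9, 78 and 89.8 CPM in ctr gut and 651, 467 and 479 CPM in the organoids, a log2 difference of 2.90 (SE 0.21, adjusted p = 5.3e-05). Hk2, a hexokinase, was the 1 gene lower in culture, at 387, 559.8 and 890.5 CPM in ctr gut and 92.6, 51.1 and 86.6 CPM in the organoids, a log2 difference of -2.77 (SE 0.38, adjusted p = 0.000733). Of p53 targets, 1 of 16 tested genes were higher in ctr gut and 13 in the organoids, with a median log2 difference of 1.91. Eda2r, a death receptor, stood at 2.58, 3.67 and 5.47 CPM in ctr gut and 57.1, 41.4 and 59.5 CPM in the organoids, a log2 difference of 3.99 (SE 0.33, adjusted p = 9.7e-05). Bbc3, which encodes the cell death protein PUMA, stood at 5.08, 5.56 and 3.71 CPM in ctr gut and 32.5, 32.8 and 25.1 CPM in the organoids, a log2 difference of 2.92 (SE 0.24, adjusted p = 8.81e-05). Both take part in cell death. Fas, another death receptor, was lower, with a log2 difference of -1.70 (adjusted p = 0.00135). Cdkn2a, a cell cycle inhibitor in no list, stood at 0.0358, 0.129 and 0 CPM in ctr gut and 78.3, 72.5 and 81.6 CPM in the organoids, a log2 difference of 10.67 (SE 0.45, adjusted p = 1.31e-05). Among enzymes that handle foreign compounds 14 of 27 tested genes were higher in ctr gut and 10 in the organoids, with a median log2 difference of -1.18, or -0.55 without gut library 2. The glutathione transferases Gsta4 and Gsta1 were higher in culture, Gsta4 at 41.1, 39.4 and 69.9 CPM in ctr gut and 938, 852 and 986 CPM in the organoids (log2 differences 4.45 and 4.44, adjusted p = 5.72e-05 and 0.000156). Sult1b1, a sulfotransferase, was almost absent there, at 85.6, 186 and 133 CPM in ctr gut and 0.0983, 0.0693 and 0.0696 CPM in the organoids, a log2 difference of -10.41 (SE 0.49, adjusted p = 1.81e-05).

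Some genes of other epithelia were found in the organoids and not in the tissue. Of the 15 protein-coding genes with the largest difference in favour of the organoids, 4 had 0 reads in all ctr gut libraries. Gc (gene ID 14473, chr5:89417511-89457898), the vitamin D binding protein made by liver, stood at 82.5, 132 and 109 CPM, at least 2765-fold higher in the organoids (adjusted p = 4.39e-05). Ivl (chr3:92570899-92573790), which encodes involucrin of the squamous cell envelope, stood at 86.6, 55.2 and 90.4 CPM, at least 1997-fold higher in the organoids (adjusted p = 3.4e-05). Crct1, a gene of the epidermal differentiation complex that also holds Ivl, stood at 23.5, 31.7 and 20.5 CPM, at least 649-fold higher in the organoids (adjusted p = 7.42e-05). Onecut1 (chr9:74861921-74889648), a factor of liver, bile duct and pancreas, stood at 19.4, 11.4 and 19.2 CPM, at least 430-fold higher in the organoids (adjusted p = 8.97e-05). Each of these 4 was present in all 3 organoid libraries. Among the rest, Sftpd, a collectin of lung surfactant, stood at 0, 0.0862 and 0.115 CPM in ctr gut and 326, 332 and 378 CPM in the organoids, a log2 difference of 12.53 (SE 0.48, adjusted p = 1.16e-05). Aqp5, a water channel of glands, stood at 0.179, 0.129 and 0.115 CPM in ctr gut and 228, 208 and 236 CPM in the organoids, a log2 difference of 10.83 (SE 0.25, adjusted p = 2.79e-06). These are genes of secretory and airway epithelia. Gabrp, a subunit of the GABA-A receptor found in glands, stood at 0.501, 0.733 and 1.53 CPM in ctr gut and 1061, 1008 and 1286 CPM in the organoids, a log2 difference of 10.48 (SE 0.52, adjusted p = 1.92e-05). These 15 genes were chosen among those whose groups do not overlap, and the plot of the 15 genes gives their values.

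**Figure D4:**
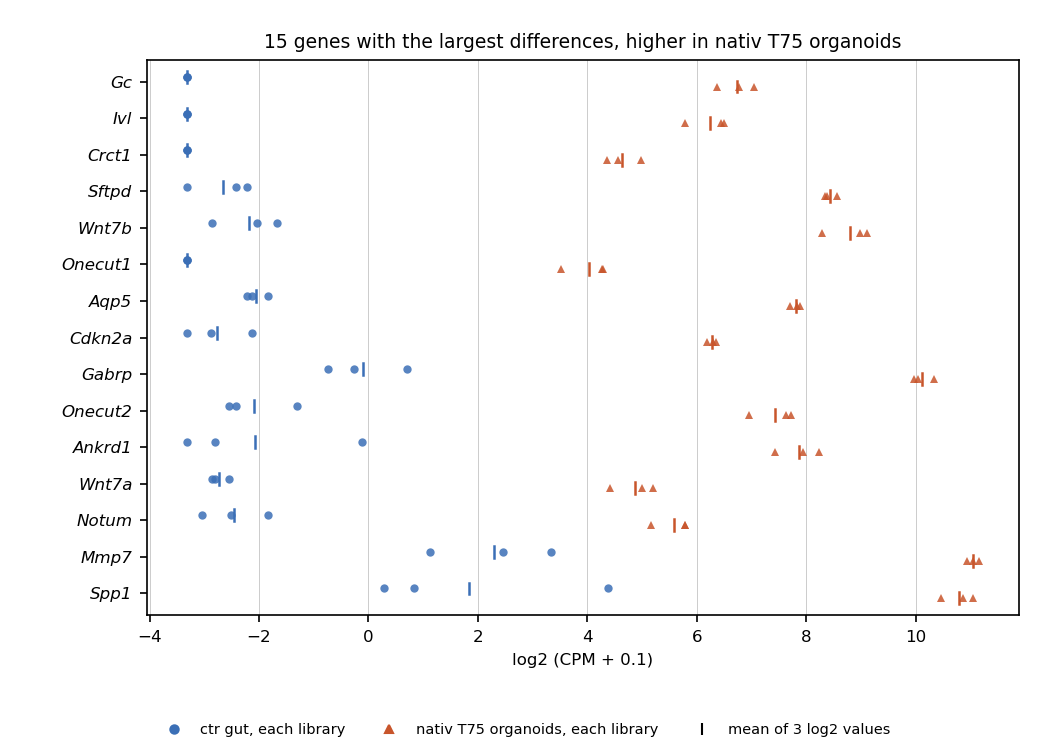
The 15 protein-coding genes with the largest difference in favour of nativ T75 organoids among those of at least 10 CPM, as log2(CPM + 0.1) in the 3 ctr gut libraries (blue circles) and the 3 organoid libraries (orange triangles), with a tick at the mean of the 3 log2 values, to be compared within a gene only. Gc, Ivl, Crct1 and Onecut1 lie at 0 reads in every gut library. Groups without overlap were a condition of the choice.

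Lists for other epithelia did not point to a single organ. For bile and pancreatic duct 2 of 18 tested genes were higher in ctr gut and 13 in the organoids, with a median log2 difference of 2.18. It shares genes with epithelia at large, but Onecut2, a relative of Onecut1, stood at 0.0716, 0.0862 and 0.306 CPM in ctr gut and 211, 123 and 199.5 CPM in the organoids, a log2 difference of 10.36 (SE 0.48, adjusted p = 1.73e-05). Sox17, an endoderm factor of the biliary bud chosen after its values were seen, stood at 5.23, 3.02 and 0.727 CPM in ctr gut and 34.8, 26 and 32.8 CPM in the organoids, a log2 difference of 3.66 (SE 0.57, adjusted p = 0.00118). Every organoid library exceeded every gut library for Onecut2 and Sox17. Cftr, the chloride channel of ducts and crypts, ran against the list, at 13.8, 20.5 and 26 CPM in ctr gut and 0.524, 0.936 and 0.87 CPM in the organoids, a log2 difference of -4.44 (SE 0.42, adjusted p = 0.00015). Of 18 squamous genes 12 were tested, with 4 higher in ctr gut and 2 in nativ T75 organoids. Krt4, a squamous keratin, stood at 0.179, 0.0431 and 0.306 CPM in ctr gut and 18.2, 12.6 and 19.2 CPM in the organoids, a log2 difference of 6.74 (SE 0.52, adjusted p = 7.42e-05), whereas Krt13, its usual partner, stood at 4.25, 1.81 and 9.74 CPM in ctr gut and 0.229, 0.13 and 0.331 CPM in the organoids, a log2 difference of -4.22 (SE 0.75, adjusted p = 0.00207). Of 19 stomach genes 4 could be tested, with 3 higher in nativ T75 organoids and 1 in ctr gut. Ctse, a gastric protease also in the fetal list, stood at 7.48, 13.2 and 9.89 CPM in ctr gut and 74.7, 44.2 and 74.9 CPM in the organoids, a log2 difference of 2.90 (SE 0.29, adjusted p = 0.000202). Atp4a, the acid pump, stood at 0.537, 0 and 0.344 CPM in ctr gut and 4.26, 3.4 and 3.48 CPM in the organoids, a log2 difference of 3.88 (SE 0.81, adjusted p = 0.00428), and Pgc, a pepsinogen, stood at 0, 0 and 0.0765 CPM in ctr gut and 2.49, 0.52 and 2.23 CPM in the organoids, a 68-fold ratio with a 95% counting interval of 18.5 to 566 (adjusted p = 0.00182). Both were higher in culture but stayed under 5 CPM in every library. The gene higher in ctr gut was Vsig1, a junction protein of the stomach, at 16.2, 14 and 61.9 CPM in ctr gut and 1.51, 1.77 and 1.32 CPM in the organoids, a log2 difference of -4.09 (SE 0.67, adjusted p = 0.00145). Of 21 urogenital genes 10 were tested, with 6 higher in nativ T75 organoids and 3 in ctr gut. Among the 6, Cdh6, a kidney cadherin, stood at 8.06, 2.89 and 1.15 CPM in ctr gut and 42.7, 20.9 and 42.5 CPM in the organoids, a log2 difference of 3.41 (SE 0.63, adjusted p = 0.00245). Msx1, a homeobox factor, stood at 0.466, 0.819 and 0.23 CPM in ctr gut and 8.32, 9.49 and 8.39 CPM in the organoids, a log2 difference of 4.38 (SE 0.48, adjusted p = 0.000266).

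The 43 genes present in the organoids and not detected in ctr gut included 23 that code for proteins. Besides Gc, Ivl, Crct1 and Onecut1 these held Onecut3, at 6.49, 4.16 and 6.41 CPM against 0, 0.0108 and 0 CPM, Irx2, a homeobox factor, at 11.3, 5.75 and 9.26 CPM against 0, 0.0431 and 0 CPM (682-fold, 95% counting interval 122 to 26980), and Uts2, a peptide hormone, at 8.29, 10 and 7.69 CPM and 0 reads in ctr gut. Psca, a surface antigen of prostate, bladder and stomach, stood at 0.0716, 0 and 0.0765 CPM in ctr gut and 3.11, 2.11 and 2.09 CPM in the organoids. Onecut3, Irx2, Uts2 and Psca were chosen after their values were seen.

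Genes of cell types that organoids do not hold were nearly all higher in ctr gut. Of 108 genes of wall lists, the 96 above and 12 of mesothelium and fat, 98 were tested, and 91 were higher in ctr gut and 2, Cd68 and Msln, in nativ T75 organoids. Of the 94 present in ctr gut 40 were not detected in the organoids, and 25 of the 108 had 0 reads in all 3 organoid libraries. Ptprc, the pan-leukocyte antigen CD45, stood at 128, 90.2 and 51.8 CPM in ctr gut and 0 reads in culture, at least 2674-fold higher in ctr gut (adjusted p = 8.76e-05). Cxcl13, a chemokine of lymphoid follicles, was at 460, 218 and 126 CPM and 0 reads, at least 8053-fold higher in ctr gut (adjusted p = 0.000175). Both are known from immune and lymphoid cells. Col3a1, a collagen of fibroblasts, stood at 1415, 810.5 and 396 CPM in ctr gut and 0.0655, 0 and 0.0696 CPM in the organoids, a log2 difference of -13.82 (SE 0.79, adjusted p = 2.86e-05). Acta2, smooth muscle actin, stood at 1093, 842 and 169.7 CPM in ctr gut and 0.0328, 0.0693 and 0.313 CPM in the organoids, a log2 difference of -12.00 (SE 1.04, adjusted p = 0.00011). Pecam1, of vessels, stood at 97.8, 61.4 and 18.9 CPM in ctr gut and 0.0328, 0.104 and 0.0348 CPM in the organoids, a log2 difference of -9.64 (SE 0.83, adjusted p = 0.00011). Gut library 1 was the highest for each of these 5 genes and gut library 3 the lowest. In all, 16 of the 108 were present in the organoids, of which Krt19 is expressed by epithelium too, and Msln, a marker of mesothelium, was higher there at 74.5, 17.9 and 50.8 CPM in ctr gut and 843, 548 and 775 CPM in the organoids, a log2 difference of 4.18 (SE 0.50, adjusted p = 0.0004). Hbb-bs, a globin of red blood cells, stood at 158, 77.8 and 2.68 CPM in ctr gut, so that the 3 tissue samples differed in globin RNA as well.

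The programmes lacking in nativ T75 organoids were looked up in the other groups. Of 510 epithelial list genes present in ctr gut, DMSO organoids of T75 had 387 present (75.9%), Tamoxifen organoids of T41 454 (89%) and PG_KO gut 487 (95.5%). Over all genes present in ctr gut the shares were 82.9% in DMSO organoids of T75, 84.9% in T41 organoids and 96% in PG_KO gut. Of the 41 not detected in nativ T75 organoids, 0 were present in DMSO organoids of T75, 26 in T41 organoids (63.4%) and 31 in PG_KO gut (75.6%). Over all 1065 genes not detected in nativ T75 organoids these shares were 0%, 11.1% and 75.2%. Cdx1 stood at 0, 0 and 0.0328 CPM in DMSO T75 organoids and at 102, 99.3 and 109.6 CPM in T41 organoids. Atoh1 stood at 0, 0 and 0.0328 and 9.56, 9.14 and 10.6 CPM, Isx at 0, 0 and 0 and 62.7, 61.6 and 61.8 CPM, and Chga at 0, 0.0397 and 0.0656 and 12.2, 12.2 and 13.5 CPM in the same order. For these 4 genes every T41 library lay above every T75 library. Aqp8 was not present in T41, with 0.0669, 0.163 and 0.0716 CPM. Of the 22 Hox genes present in ctr gut 7 were present in T41 organoids and 21 in PG_KO gut. T41 and T75 differ in code, title genotype and treatment at once, so these cannot be told apart, and no test was made here.

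The genes that the organoids had beyond the tissue were looked up in the same groups. Of the 43, 35 were present in DMSO organoids of T75 (81.4%), 9 in T41 organoids (20.9%) and 0 in PG_KO gut. Not detected were 0 in DMSO organoids of T75, 11 in T41 organoids (25.6%) and 35 in PG_KO gut (81.4%), and the others lay in between. The same shares over all genes present in nativ T75 organoids were not computed. Ivl stood at 78.9, 90.4 and 90.7 CPM in DMSO T75 organoids, 0.301, 0.553 and 0.429 CPM in T41 organoids and 0, 0.0792 and 0 CPM in PG_KO gut. Gc stood at 119, 108 and 85.3 CPM, 1.5, 0.52 and 1.04 CPM and 0, 0.0792 and 0 CPM in these groups. Lgr5, which is not among the 43, was at 35.4, 61.4 and 86 CPM, 42.3, 42.8 and 41.4 CPM and 0.388, 3.88 and 2.46 CPM. The plot of gut genes found elsewhere shows the shares by list.

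**Figure D5:**
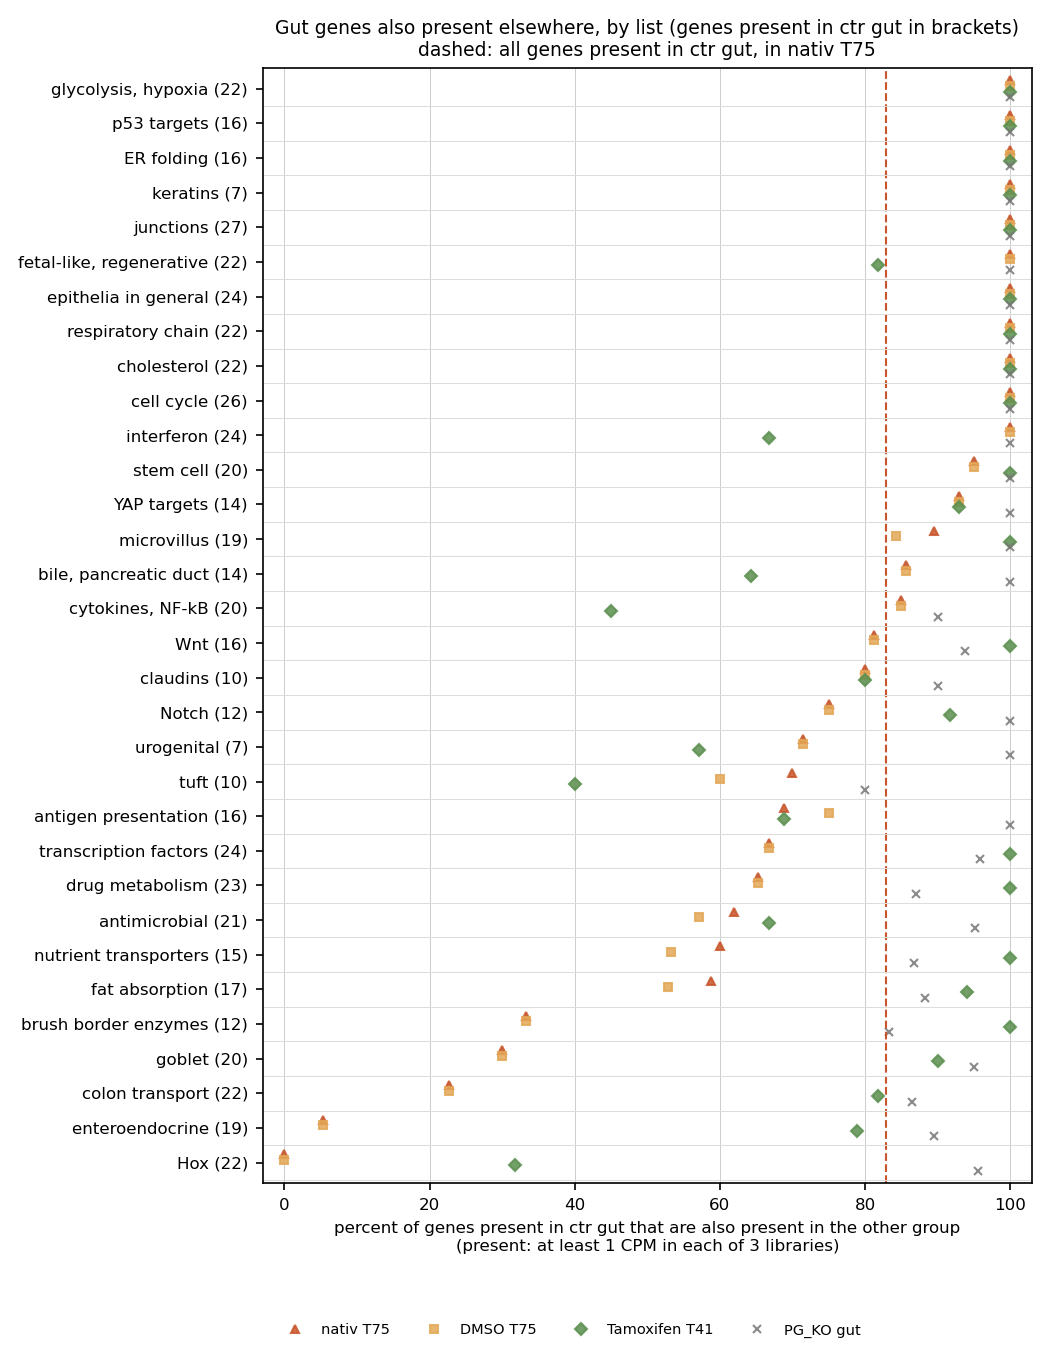
For the Hox list and each list of epithelium with at least 7 genes present in ctr gut, the percent of its genes present in ctr gut (number in brackets, at least 1 CPM in each of 3 libraries) that were also present in nativ T75, DMSO T75 and Tamoxifen T41 organoids and in PG_KO gut, with a dashed line at the share of all genes present in ctr gut, 82.9% in nativ T75. Among the lists plotted, Hox, enteroendocrine, colon transport, goblet and brush border genes lie lowest in both T75 groups, at 0% to 33.3% in nativ T75.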

How the data were processed

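The 2 deposited tables, 1 for gut and 1 for organoids, hold expected counts that were not normalized. Per the submitters' processing notes, the build was GRCm38.p6, and the listed tools were STAR 2.7.2b, featureCounts 1.6.4, cutadapt 2.5, bcl2fastq 2.20.0.422, DESeq2 and Subread. The strand setting is not given in the sources used here. In the 6 libraries 10.4% to 13.7% of the values were not whole numbers (any fraction counted), as arises where a read is divided among genes, and all values were rounded before fitting. Per the labels, TRIZOL was used to isolate RNA, oligo-dT beads to enrich it, and the RIN was 7.7 or more.

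Both tables were joined by gene ID (45905 genes). The test was edgeR 4.0.16 (R 4.3.3) with TMM factors, filterByExpr, a quasi-likelihood fit of the 6 libraries and Benjamini-Hochberg adjustment over all 17915 genes tested, with calls at an adjusted p under 0.05. Log2 differences are organoids minus gut, on TMM-scaled reads, and n is 3 libraries per group. CPM use library totals. A fold against 0 reads is a bound against 3 reads over the group, and with 1 to 3 reads a ratio with a 95% counting interval is given. Intervals and bounds cover counting error only. The members and the 49 gene lists were chosen with earlier results of these data known.

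Genes named are Jup, the 15 largest differences each way (called, protein-coding, at least 10 CPM, no overlap), the 3 largest each way and the 2 smallest (at least 5 CPM) in each epithelial list, the 2 most abundant in each wall list, and any factor, claudin, keratin or Hox gene, and 13 more were chosen after their values were seen. Some genes that meet the rule are not reported here. Alternatives were DESeq2 1.42.0, limma-voom (limma 3.58.1), other factors, other filters, a fit of all 15 libraries, a replicate block and each library left out. In data simulated with 17915 genes, 100 were changed by a log2 of 1 and 100 by a log2 of 2. edgeR recovered 17% and 79% of these, with 9 false calls. Far fewer genes were changed there than the 60.2% called here, so these shares cannot be carried over to this comparison. Figures were drawn with matplotlib 3.10.9.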

Additional observations from a re-analysis of the deposited data

Results flagged for a closer look

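A signal appeared in libraries that the comparison does not use. Of the 1065 genes present in ctr gut and not detected in nativ T75 organoids, 118 (11.1%) were present in the 3 Tamoxifen organoid libraries of T41, and 0 in the 3 DMSO organoid libraries of T75. Among the 118 were the transcription factors Isx and Prdm1, the secretory genes Atoh1, Klk1 and Chga, and the colon genes Car1 and Slc26a3. Prdm1 stood at 1.87, 1.85 and 1.11 CPM in T41 organoids against 0.0677, 0.119 and 0.131 CPM in DMSO T75 organoids. Car1 stood at 5.95, 6.54 and 5.04 CPM in T41 organoids, against 444, 313 and 622 CPM in PG_KO gut.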

How the results depend on the processing

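No gene called in the comparison was called in the opposite direction under any of 15 alternatives. The total of 10791 calls ranged from 8788 (scaling on the epithelial list) to 13560 (all 15 libraries in 1 fit), and from 9238 (without gut library 2) to 11826 (without gut library 3) when 1 library was left out. Genes higher in nativ T75 organoids numbered 2691 with the epithelial scaling. Without a filter on low reads the split was 7554 higher in ctr gut and 4772 higher in the organoids. Same-numbered deviations correlated at 0.0869, 0.124 and -0.0302. Gut libraries 1 and 2 correlated best with the organoid library of the same number, and gut library 3 with organoid library 2. These values cannot settle whether replicate numbers pair the samples, and the codes T50, T51, T52 and T75 give no pairing. The replicate block gave 10859 calls. Of 319 named genes tested, 281 kept their direction and side of the threshold under every alternative that tested them (302 were tested with at least 1 CPM in 3 libraries). Il1rn, an interleukin 1 antagonist at 454, 167 and 148 CPM in ctr gut and 213, 183 and 228 CPM in the organoids (log2 difference -0.02), was called at 0.59 without gut library 1 (adjusted p = 0.0172), and ranged from -0.35 to 0.59 when 1 library was left out. Among 268 called named genes, leaving out 1 library moved the fold by over 1.5 times for 11 (gut library 2) to 35 (gut library 1). Medians of 40 of 49 lists never changed sign. That of the Paneth list, -4.32, became 0.37 without a low-read filter, 2.22 with at least 1 CPM in 3 libraries and 0.35 in the fit of all 15, as other genes were tested. That of the liver list went from -3.14 to 1.85, and of the squamous list from -0.66 to 0.15, with 1 CPM in 3 libraries. Genes present in ctr gut and not detected in the organoids numbered 1065, or 407 with presence from 5 CPM and 1815 with under 0.5 CPM as not detected. The reverse count of 43 became 16, 166 and, for protein-coding genes alone, 23, and 44 to 68 when 1 library was left out, the most without gut library 1. The depth sets not detected at about 3 reads per library.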

Other observations

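Most genes of cholesterol synthesis and of respiration were not called between tissue and culture. Of 22 genes of cholesterol synthesis and uptake, 5 were higher in ctr gut and the other 17 were not called, with a median log2 difference of -0.16, and all 22 were present in both groups. Of 22 nuclear-encoded genes of the respiratory chain, 3 were higher in ctr gut and 1 in nativ T75 organoids, against 6 and 0 with the epithelial scaling. In the list of protein folding in the endoplasmic reticulum, 7 of 16 tested genes were higher in the organoids and the other 9 were not called, with a median log2 difference of 0.62, and with the epithelial scaling 5 were higher in the organoids and 3 in ctr gut. Hspa5, the main chaperone there, stood at 758, 709.6 and 1115 CPM in ctr gut and 766, 782 and 782 CPM in the organoids, a log2 difference of 0.10 (SE 0.25, adjusted p = 0.741), while Trib3, a gene of the stress branch, stood at 2.61, 2.11 and 1.95 CPM in ctr gut and 27.4, 30 and 30.9 CPM in the organoids, a log2 difference of 3.99 (SE 0.21, adjusted p = 2.2e-05). Chac1 and Ddit3 of the same branch were also higher in culture, with log2 differences of 3.21 (adjusted p = 3.68e-05) and 3.04 (adjusted p = 0.00039).

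Few genes of the liver, lung and pancreas lists had enough reads to be tested. Of 14 genes of pancreatic islets and acini 4 were tested, and Cela1, an elastase, stood at 34.9, 59.4 and 38.4 CPM in ctr gut and 6.68, 10.5 and 6.75 CPM in the organoids, a log2 difference of -2.20 (SE 0.32, adjusted p = 0.000874). Of 10 liver genes 5 were tested. Tat, a tyrosine-degrading enzyme, was at 108, 96.5 and 218 CPM in ctr gut against 0, 0 and 0.104 CPM in the organoids, a 4159-fold ratio with a 95% counting interval of 1423 to 20173 (adjusted p = 4.26e-05). Afp, alpha-fetoprotein, stood at 0.573, 0.431 and 0.191 CPM in ctr gut and 1.05, 2.46 and 1.64 CPM in the organoids, a log2 difference of 2.38 (SE 0.55, adjusted p = 0.00705). In the lung list, 4 of 12 genes were tested, with 1 higher in each group.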
